A study of Mus musculus with 2 samples.

Results

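The forkhead genes described here are Foxk1, Foxk2, Foxo1, Foxo3, Foxp1, Foxp2, Foxp4, Foxj3 and Foxc1, 9 genes that encode transcription factors with a forkhead DNA-binding domain. Their Sap130 peaks were every peak that the deposited list labels with 1 of these genes, and any other peak that overlapped the gene body or lay within 50 kb of it. This gave 28 of the 16231 peaks in the list, of which 12 carried the label of a forkhead gene described here, 7 that of a neighbouring gene and 9 no gene. A peak is a stretch of the genome with more sequenced fragments in a chromatin immunoprecipitation (ChIP) library than the peak caller's background. A label is the gene symbol that the authors joined to a peak whose centre lay near that gene's transcription start, and such a peak is called a promoter peak below.

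The peaks came from whole brain of B6 wildtype mouse embryos at stage E13.5. Chromatin was enriched with 2 µg of a rabbit anti-Sap130 antibody for 1 ChIP library, and 1 input DNA library was made from chromatin that was not precipitated. With 1 library of each kind, all values describe a single list and have no replicate check, and no test between samples was possible. The list gives the position of each peak but no height, enrichment or q-value, so the depth is unknown. The place of a peak below is its running number, where 1 is the first, and the quantity behind this order is unknown. The labels state neither the sex of the embryos nor whether several brains were pooled, and a whole brain holds vessels and meninges besides neural cells.

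Sap130 is a subunit of the Sin3 complex, a corepressor that brings histone deacetylases to DNA. Foxk1 and Foxk2 bind Sin3 directly and in muscle cells recruit it to genes of autophagy. Foxo1 and Foxo3 are held in the cytoplasm when insulin signalling activates Akt, and otherwise switch on genes of stress resistance and cell cycle arrest. Foxp1, Foxp2 and Foxp4 pair with each other through a leucine zipper and are mainly repressors. In humans, mutations of FOXP2 impair speech and language and those of FOXP1 cause intellectual disability, and in the mouse Foxp1 acts in the choice of motor neuron type. Foxc1 acts in the meninges, in vessels and in the eye.

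All 9 genes carried at least 1 promoter peak, against 49.2% of the 20953 protein-coding genes used for comparison. The genes were named with earlier results of this list known. Nothing is thus read from that count, or from the widths and places set beside all labelled genes below. At the starts of these genes the earliest promoter peaks had a median width of 1375 bp. Over all 10314 labelled protein-coding genes it was 841 bp (quartiles 574 and 1208 bp). Of the 9 peaks, 8 were wider than the median of all labelled genes, and 5 stood earlier than their median place of 5851.5. The 5 genes Foxj3, Foxk1, Foxo3, Foxk2 and Foxp4 stood at places 951 to 3419 with widths from 1375 to 2230 bp. Foxp2, Foxp1 and Foxo1 stood at places 8446 to 10594 with widths from 940 to 1107 bp. Foxc1 stood apart from both groups, with a peak of 235 bp at place 14721.

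**Figure D1:**
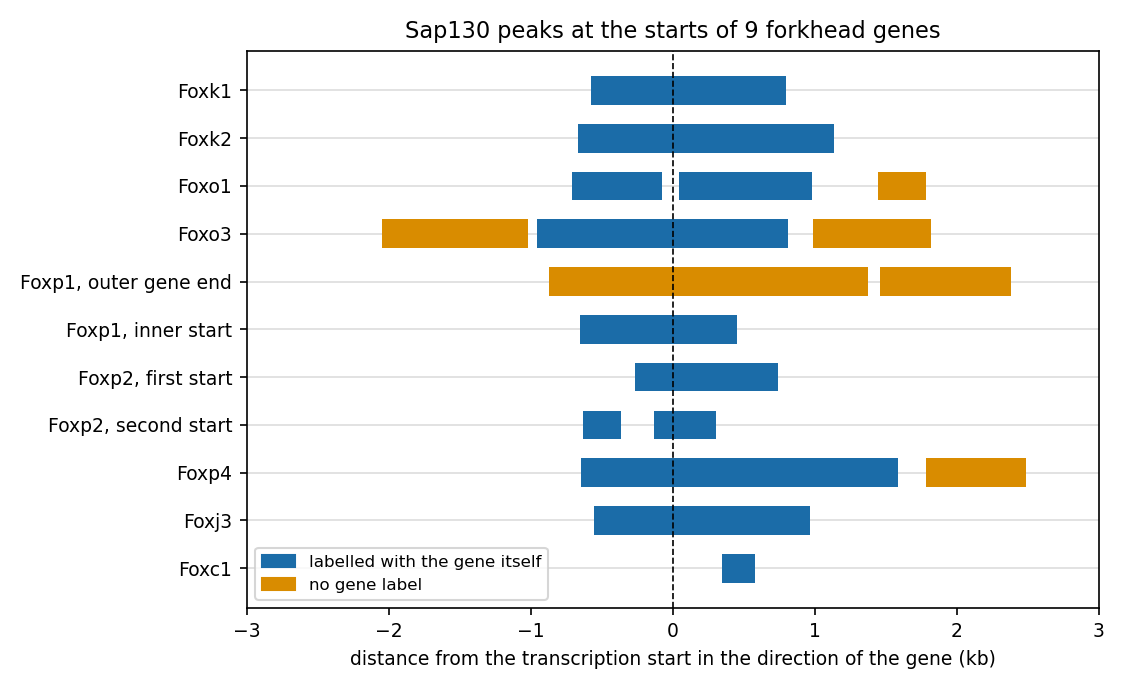
Sap130 peaks around the transcription starts of 9 forkhead genes, drawn to scale with the distance from the start in kb on the horizontal axis and the gene running to the right. Blue bars are peaks labelled with the gene, orange bars peaks without a label, and the dashed line is the start, which lies in a gap between peaks at Foxo1 and outside the peak at Foxc1.

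Foxk1 and Foxk2, the paralogues that bind Sin3, had a similar arrangement, with 1 wide peak across the start. It was not particular to them, as Foxj3, Foxm1 and Foxo6 had it too. Foxk1 (chr5:142401497-142462015, plus strand, GRCm38) had a 1375 bp promoter peak at chr5:142400921-142402296, at place 2163. Its centre lay 111.5 bp downstream of the start, in the coding part of exon 1, and it was wider than the earliest promoter peak of 82.5% of labelled genes. Foxk2 (chr11:121259987-121309900, plus strand) had an 1804 bp promoter peak at chr11:121259318-121261122, at place 2738. Its centre lay 233 bp downstream of the start, also in the coding part of exon 1, and it was wider than that of 93.3% of labelled genes. Both peaks began upstream of the start and ended inside the gene.

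The surroundings of the Foxk genes differed. An unlabelled peak of 944 bp at chr5:142367137-142368081, centred 33.9 kb upstream of Foxk1, stood at place 59, with 0.357% of the whole list before it. It overlapped the end of the long non-coding RNA gene Gm31068, and the next peak on its other side was 1125 kb away. A second unlabelled peak of 363 bp lay in intron 2 of Foxk1 at place 15424. The remaining peak of the Foxk1 locus, at place 1171, belonged to the start of Ap5z1, a gene of an adaptor complex, beyond the end of Foxk1. Within the Foxk2 body the promoter peak stood alone, and the other 4 peaks of the locus were labelled BC017643, Narf (on 2 peaks) and Wdr45b. The 2 loci held 4 and 5 peaks, beside a median of 2 over all protein-coding genes (quartiles 0 and 4), and 74.0% of those genes had any peak within the same distance.

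Foxo1 and Foxo3, which both act below insulin and Akt, each had 3 peaks close together at the start. At Foxo3 (chr10:42181845-42276695, minus strand) the peaks spanned 3866 bp, of which 3628 bp were covered. The middle one, with the Foxo3 label, was 1767 bp wide at chr10:42275932-42277699, crossed the start and stood at place 2439. The peak upstream of it, separated by a gap of 60 bp, had no label and a width of 1034 bp, and its place of 292 was earlier than that of the labelled peak. The third, of 827 bp at place 12456, lay downstream after a gap of 178 bp, with its centre in the coding part of exon 2. The Foxo3 peak earliest in the list was thus the unlabelled one, centred 1581 bp upstream of the gene's outer end in RefSeq.

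At Foxo1 (chr3:52268337-52350109, plus strand) the peaks spanned 2491 bp and covered 1911 bp. A 636 bp peak at chr3:52267627-52268263 (place 11218) and a 940 bp peak at chr3:52268378-52269318 (place 10594) carried the label. The start lay in the 115 bp gap between them, and neither peak covered it. The third peak, of 335 bp at place 12644, was centred in intron 1, 1613.5 bp downstream of the start. All 3 stood later in the list than 5851.5, the median place of the earliest promoter peaks, and later than the labelled peak of Foxo3.

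Foxp1 and Foxp2, genes of 597405 and 540629 bp, were marked at more than 1 start. The list labelled Foxp1 (chr6:98925342-99522746, minus strand) at an internal start only, with a 1107 bp peak at chr6:99027847-99028954 (place 9382), 494 kb inside the gene. At the outer end of the gene a pair of peaks without a label spanned 3255 bp with a gap of 84 bp. The one of 2251 bp at chr6:99521368-99523619 covered the outermost end of the gene, stood earlier in the list (place 6213) and was wider than 97.3% of all peaks. The other, of 920 bp at chr6:99520364-99521284 (place 10436), covered a further RefSeq start. A middle start of Foxp1, at position 99266515, had no peak near it, and the nearest lay 238 kb away. The 3 peaks were all that the gene body and 50 kb on both sides contained.

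Foxp2 (chr6:14901349-15441977, plus strand) carried its label on 3 peaks at 2 starts. The upstream start had a 1010 bp peak at chr6:14901081-14902091 (place 8446), centred in the 5′ UTR part of exon 1. At the internal start, 284 kb downstream, peaks of 267 bp (place 15499) and 439 bp (place 13912) were separated by 230 bp, and the second covered the start. The peaks of the internal start were thus narrower and later in the list than that of the upstream start, while at Foxp1 the wider peak was likewise at the outer end. More than 1 labelled peak was found at 2 of the 9 genes, Foxo1 and Foxp2, and at 16.3% of all labelled protein-coding genes.

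Foxp4 (chr17:47867133-47924632, minus strand) had the widest promoter peak of the 9 genes, 2230 bp at chr17:47923049-47925279 (place 3419), wider than that of 97.5% of labelled genes. Its centre lay in intron 1. An unlabelled peak of 705 bp (place 10865) followed in intron 1 after a gap of 199 bp, and one of 357 bp (place 13654) lay in intron 5, 45.7 kb from the start. The fourth peak of the locus, of 217 bp, belonged to Mdfi, whose product inhibits myogenic factors.

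Foxj3 (chr4:119539661-119629119, plus strand), whose product activates Mef2c in mouse muscle, had the earliest promoter peak of the 9 genes. It was 1522 bp wide at chr4:119539133-119540655 and stood at place 951, behind 8.49% of labelled genes. The other peak of its locus was at the start of Rimkla, 46.8 kb away. Foxc1 (chr13:31806646-31810635, plus strand), a gene with a single exon, had 1 peak in its whole locus, at chr13:31806992-31807227. Its width of 235 bp exceeded that of 1.15% of labelled genes and was near the smallest width in the list, 217 bp. The peak began downstream of the start, and its centre lay in the 5′ UTR.

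**Figure D2:**
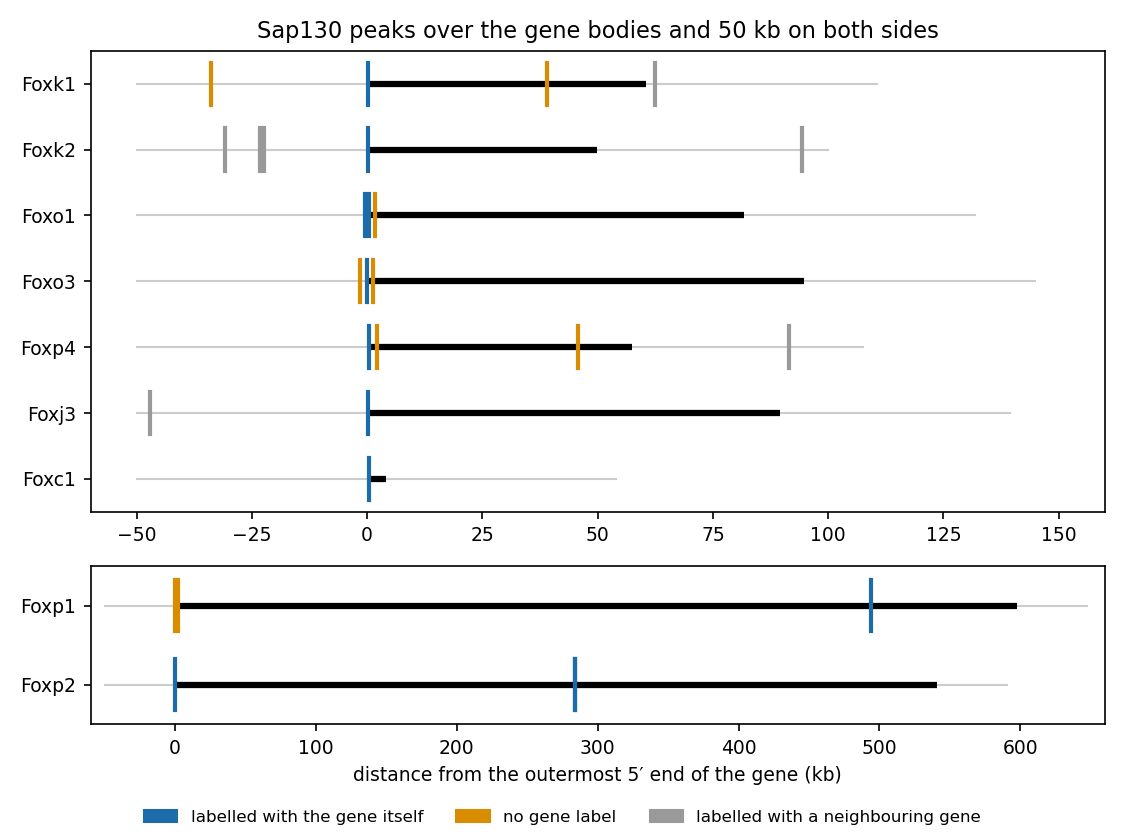
All 28 Sap130 peaks over the bodies of 9 forkhead genes (black lines) and 50 kb on both sides (grey lines), with the distance from the outermost 5′ end in kb on the horizontal axis. Coloured ticks mark peak centres by label, and most peaks without the label of a neighbouring gene stand at a start. Those away from it are unlabelled, in introns of Foxk1 and Foxp4 and outside the gene body 33.9 kb upstream of Foxk1.

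Pooled across the 9 loci there were 1.13 peaks per 100 kb, beside 1.65 pooled over the same windows of all protein-coding genes. The bodies of these genes are long, with a median of 81.8 kb beside 17.8 kb, and most of their own peaks stood at a start. The part of gene length and of peak placement in the pooled density was not tested. Locus by locus, the median over all protein-coding genes was 1.28 peaks per 100 kb. Foxk1, Foxk2, Foxo1, Foxo3 and Foxp4 lay above it, from 1.54 at Foxo3 to 3.34 at Foxk2, whose peaks were mostly at neighbouring genes. Below it were Foxj3 with 1.06, Foxc1 with 0.962, and Foxp1 and Foxp2 with 0.430 and 0.468. The start of the labelled transcript lay under a labelled peak at 7 of the 9 genes and at 81.6% of labelled protein-coding genes. Of the 12 promoter peaks, 8 were centred downstream of the start, beside 77.6% of the promoter peaks of protein-coding genes. A labelled peak had another peak within 500 bp at 4 of the 9 genes (Foxo1, Foxo3, Foxp2 and Foxp4) and at 26.0% of labelled protein-coding genes, a distance chosen after the positions were seen. The farthest peak inside the limit of 50 kb was that of Rimkla at 46.8 kb, and the nearest one outside it was a 324 bp peak labelled Ogfod3, 54.9 kb from Foxk2.

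**Figure D3:**
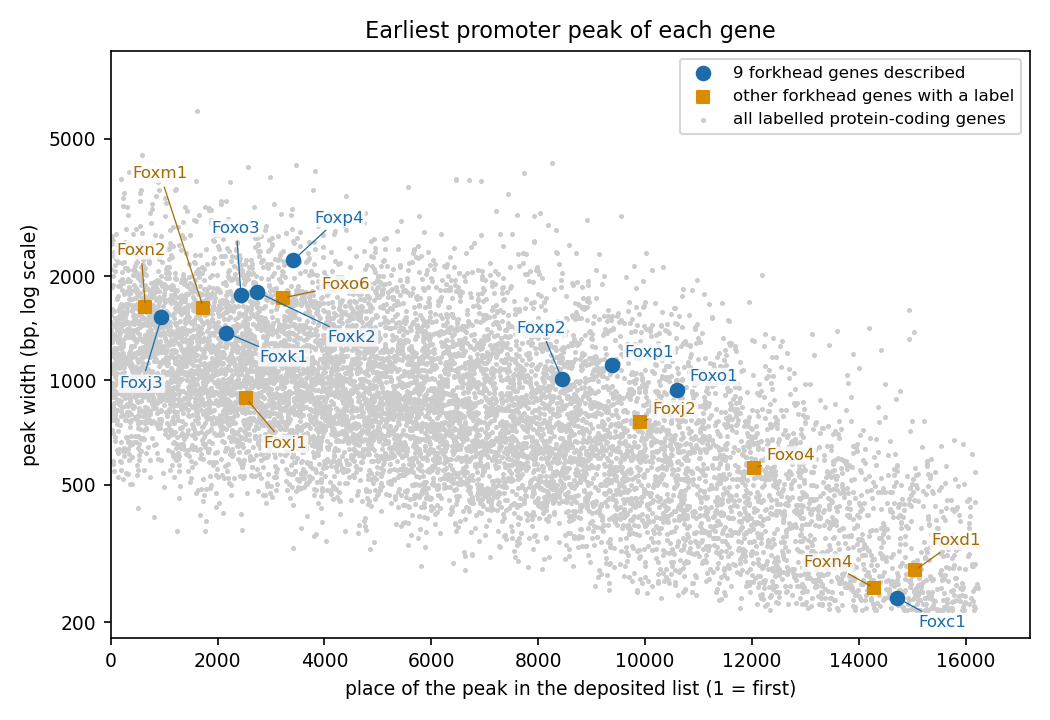
Width in bp (log scale) against place in the list for the earliest promoter peak of each gene, with 9 forkhead genes in blue, 8 other labelled forkhead genes in orange and all labelled protein-coding genes in grey. Foxj3, Foxk1, Foxo3, Foxk2 and Foxp4 lie among wide, early peaks, Foxp1, Foxp2 and Foxo1 further along the list, and Foxc1 at the narrow, late end.

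Promoter sequences show what lay under or beside these peaks. RefSeq windows of GRCm38.p6, from 250 bp before to 50 bp after a start, were at hand for 7 of the 9 genes, with 3 windows for Foxp1. The outermost end of Foxp1, at position 99522746, had no window. A peak overlapped 7 of these 9 windows, and 49.4% of the 20414 windows of protein-coding genes. Base composition and motifs below were read in the 250 bases before the start only. These bases are shown for the genes whose arrangement differed. They are Foxk2 under a single wide peak, Foxo1 with the start between peaks, 3 starts of Foxp1, and Foxc1 with the peak outside the window. Capitals mark the GC box GGGCGG, the CCAAT box and the forkhead motif ATAAACA, each on either strand.
Foxk2 (chr11:121259737-121259986, plus strand): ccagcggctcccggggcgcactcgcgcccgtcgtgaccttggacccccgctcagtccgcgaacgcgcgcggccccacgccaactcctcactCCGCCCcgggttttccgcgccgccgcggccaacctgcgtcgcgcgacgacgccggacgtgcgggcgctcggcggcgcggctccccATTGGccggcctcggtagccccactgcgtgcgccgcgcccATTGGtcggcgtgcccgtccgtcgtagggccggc
Foxo1 (chr3:52268087-52268336, plus strand): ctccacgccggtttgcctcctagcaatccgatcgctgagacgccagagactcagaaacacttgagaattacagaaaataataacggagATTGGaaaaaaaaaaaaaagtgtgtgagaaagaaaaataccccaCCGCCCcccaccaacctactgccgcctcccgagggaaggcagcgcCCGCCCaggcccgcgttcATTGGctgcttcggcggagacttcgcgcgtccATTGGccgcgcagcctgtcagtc
Foxp1 start at position 99520993, inside the outermost end (chr6:99520994-99521243, minus strand): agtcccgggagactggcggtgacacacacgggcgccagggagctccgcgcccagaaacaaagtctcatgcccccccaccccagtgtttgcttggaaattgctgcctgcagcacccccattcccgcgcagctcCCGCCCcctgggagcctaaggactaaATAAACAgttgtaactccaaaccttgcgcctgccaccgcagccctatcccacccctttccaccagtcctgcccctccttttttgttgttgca
Foxp1 middle start (chr6:99266516-99266765, minus strand): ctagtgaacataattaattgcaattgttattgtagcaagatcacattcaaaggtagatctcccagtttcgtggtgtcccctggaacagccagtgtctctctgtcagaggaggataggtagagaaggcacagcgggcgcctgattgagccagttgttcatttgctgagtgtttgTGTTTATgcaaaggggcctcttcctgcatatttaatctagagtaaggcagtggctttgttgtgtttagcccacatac
Foxp1 internal start (chr6:99028299-99028548, minus strand): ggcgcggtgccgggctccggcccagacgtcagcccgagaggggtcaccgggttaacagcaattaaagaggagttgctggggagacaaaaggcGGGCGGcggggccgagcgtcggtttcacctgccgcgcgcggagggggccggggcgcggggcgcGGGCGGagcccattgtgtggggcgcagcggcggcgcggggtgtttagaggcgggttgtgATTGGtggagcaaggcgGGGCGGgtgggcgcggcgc
Foxc1 (chr13:31806396-31806645, plus strand): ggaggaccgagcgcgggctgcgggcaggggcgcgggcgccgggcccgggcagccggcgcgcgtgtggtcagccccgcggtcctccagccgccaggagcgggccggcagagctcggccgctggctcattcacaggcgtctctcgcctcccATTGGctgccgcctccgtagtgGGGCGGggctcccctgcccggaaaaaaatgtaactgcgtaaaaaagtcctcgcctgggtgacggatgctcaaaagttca

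The 3 Foxp1 starts with a window differed in base composition and in their peaks, and a link between these was not tested. The internal start, under the labelled peak, had 74% G and C bases and a ratio of observed to expected CpG of 1.12. The start at position 99520993, under the unlabelled peak of 920 bp, had 60.8% and a ratio of 0.52. The middle start, without a peak, had 45.2% and a ratio of 0.24. Over all windows of protein-coding genes, those overlapped by a peak had a median of 62.4% G and C and a CpG ratio of 0.79, and those not overlapped 49.6% and 0.24. The window of Foxc1 had 70.8% G and C and a ratio of 0.93 without an overlapping peak, and its narrow peak began 297 bp beyond the window. Foxk2 had the highest values of the 9 windows, 78.4% and 1.28. Foxo1, with a tract of A, had 56.0% and 1.04.

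The GC box occurred in 8 of the 9 forkhead windows, all but the middle Foxp1 start, and in 44.1% of all windows (66.2% of those overlapped by a peak). Foxo3 held it 5 times. The CCAAT box occurred in 4 windows, those of Foxk2, Foxo1, Foxp1 (internal) and Foxc1, and in 35.6% of all windows. The forkhead motif ATAAACA occurred in 2, those of Foxp1 at position 99520993 and at the middle start, and in 3.61% of all windows. The related forkhead motif GTAAACA, the E-box CACGTG and the motif of NRF1 were found in none of the 9, and in 2.55%, 6.83% and 1.11% of all windows. A match describes these letters and is not evidence of a bound factor.

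**Figure D4:**
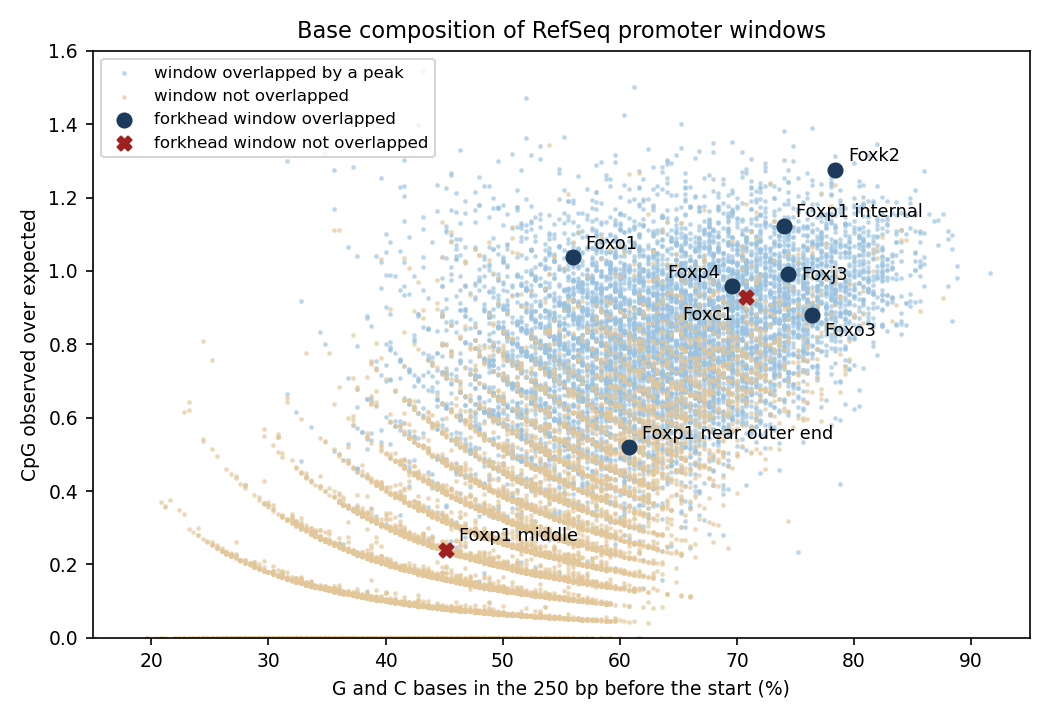
Share of G and C bases (horizontal, %) against the ratio of observed to expected CpG (vertical) in the 250 bp before the start, for RefSeq windows of protein-coding genes with a peak (blue) and without one (sand). Dark circles are forkhead windows that a peak overlapped and red crosses the middle start of Foxp1 and Foxc1, which lie at low and high CpG content.

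The rest of the forkhead family held labelled and unlabelled genes. It is what was left after the 9 labelled genes described here were taken out, so nothing is read from its labelled share. Of 35 other forkhead genes, 9 (25.7%) had a promoter peak, beside 49.2% of all protein-coding genes. Among these were Foxn2, Foxm1, Foxj1, Foxo6, Foxj2, Foxo4, Foxn4 and Foxd1. Foxm1, which drives genes of mitosis, had a 1626 bp peak at place 1733. Foxj1, the factor of motile cilia, had one of 887 bp at place 2537. Among the paralogues of the Foxo genes, Foxo6, which is expressed in brain, had a 1736 bp peak at place 3234, and Foxo4 had 3 peaks of 241 to 557 bp from place 12038 on. Foxj2, the paralogue of Foxj3, had a 758 bp peak at place 9912. The fourth Foxp gene, Foxp3 of regulatory T cells, had none.

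Of the 26 forkhead genes without a label, the first in the alphabet were Foxa1, Foxa2, Foxa3, Foxb1 and Foxb2. At 3 of the 26 there was a peak within 1 kb of a gene end. At Foxn3 it was an unlabelled peak of 2194 bp at place 2341, over the outer end of the gene, much as at Foxp1. At Foxa3 and Foxh1 the peaks carried the labels of their neighbours Sympk and Ppp1r16a.

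The gene lists from here on were chosen with earlier results of these data known. Nothing is thus read from their labelled shares, or from their widths and places. The first list holds genes that act with Foxk proteins. Of 12 such genes, 11 (91.7%) had a promoter peak, beside 49.2% of all protein-coding genes, with a median width of 1622 bp and a median place of 2080. Srf, a transcription factor that binds Foxk1, stood at place 473 with 1622 bp, Asxl1 at place 642 with 1751 bp and Dvl1 of Wnt signalling at place 1175 with 998 bp. Bap1, a deubiquitinase that binds Foxk proteins, was without a label but had a peak near an end of the gene. Of 20 genes of the Sin3 complex, 18 (90%) were labelled, with a median width of 1169 bp, and Sap18 and Ogt were the others, each with a peak near an end of the gene. Earliest were Arid4a, Ing1 and Sap30l.

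Genes above and below Foxo factors were set beside the 49.2% of all protein-coding genes with a label. These lists too were chosen with earlier results known, so no share is read as a result. Of 26 genes of insulin signalling or of proteins that act on Foxo, 23 (88.5%) had a promoter peak, with a median width of 1095 bp. Earliest were Stk4 (570 bp, place 1286), a kinase that phosphorylates Foxo, Sirt1 (1750 bp, place 1304), a deacetylase of Foxo, and Mtor (685 bp, place 1373). Pik3ca and Tsc2 were among those without a label, and both had a peak near a gene end. Of 20 known Foxo target genes, 15 (75%) were labelled, with Ccng2, an inhibitory cyclin, at place 72 with a 2369 bp peak. It was followed by Sesn1 (place 3335) and the mitochondrial superoxide dismutase Sod2 (place 3529). Cdkn1a, Gadd45a, Trim63, Ccnd1 and Tnfsf10 had no label, although Gadd45a and Ccnd1 had a peak near a gene end. Of 15 partners and targets of Foxp factors, 11 (73.3%) were labelled, earliest the corepressors Ctbp2 and Ctbp1 and the remodeller Chd4, while Gatad2b, Tbr1, Srpx2 and Mef2c were not. Of these 4, Gatad2b had a peak near a gene end.

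Among markers of vessels, mural cells and meninges, the tissues in which Foxc1 acts, 1 of 20 (5%) had a promoter peak, beside 49.2% of all protein-coding genes, the one being the forkhead gene Foxd1 (282 bp, place 15048). The list also holds the forkhead genes Foxc2, Foxf2, Foxq1 and Foxs1, but not Foxc1. The 19 without a label begin in the alphabet with Cdh5, Cldn5, Col1a1, Col1a2 and Cspg4, and 0 of these 19 had a peak near an end of the gene. The part of these cells in the narrow Foxc1 peak was not tested. The marker list and the Sox and POU domain lists below were also chosen with earlier results known. No share of theirs is read as a result. Compared with other families of transcription factors, 10 of 19 Sox genes (52.6%, near the 49.2% of all protein-coding genes) and 5 of 15 POU domain genes (33.3%) were labelled. Their median widths were 1541 and 1347 bp. Earliest were Sox12, Sox9 and Sox3, and Pou2f1 (place 39), Pou3f3 and Pou3f1. Without a label were, among others, Sox10, Sox11, Sox14, Sox15 and Sox17, and Pou1f1, Pou2f2, Pou2f3, Pou3f2 and Pou4f2. Of those named, Sox11, Pou2f2 and Pou3f2 had a peak near a gene end. In all, 3 of the 9 unlabelled Sox genes and 3 of the 10 unlabelled POU domain genes had one.

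**Figure D5:**
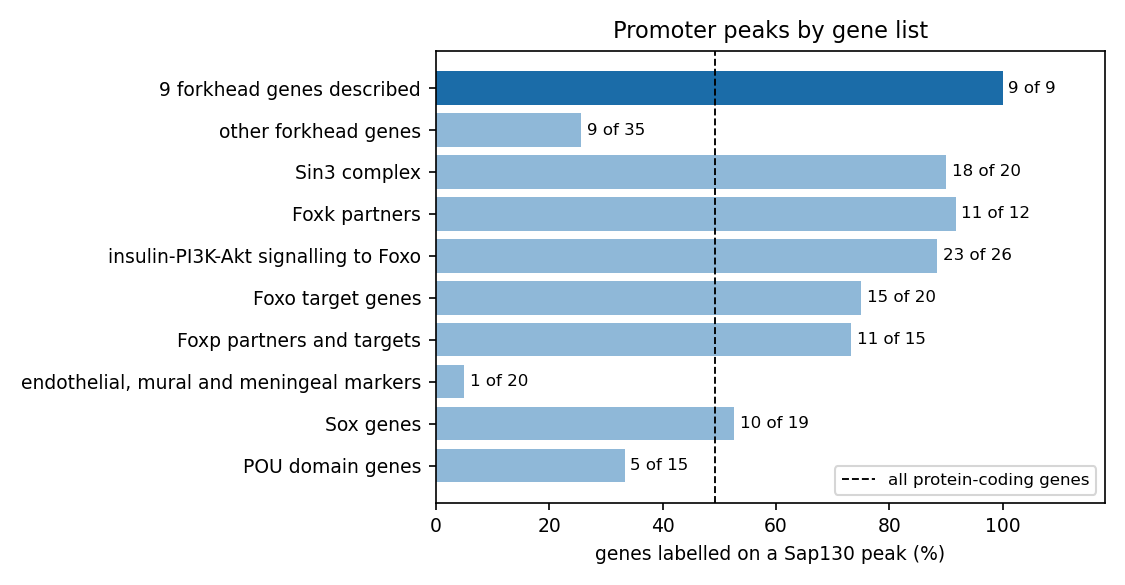
Share of genes labelled on a Sap130 peak (%) in 10 lists, with the number labelled of the number in the list beside each bar and the share of all protein-coding genes (49.2%) as a dashed line. The 9 forkhead genes, named with the labels known, stand at the top. The other forkhead genes, left after these 9 were taken out, stand at 9 of 35, and the vessel and meningeal markers at 1 of 20. All lists were chosen with earlier results known, so no share is read as a result.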

How the data were processed

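Chromatin of E13.5 mouse brain was precipitated with an antibody against Sap130, and 1 ChIP and 1 input library were sequenced. Bowtie 1.1.2, MACS2 2.1.0.20140616 and the build GRCm38 (mm10) are named per the submitters' processing notes. Their settings, thresholds, filters and the order of the list remain not given in the sources used here. Deposited by the authors was 1 list of peaks with positions and, for 12656 peaks, a gene label and transcript model. It has no count or score, so there are no intervals for depth.

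Peak positions are printed as deposited. Starts and ends of the transcript models count from 0 (1 less than the RefSeq gene bounds for 4971 and 4965 of 11047 models) and were raised by 1. Labels were matched to RefSeq genes of GRCm38.p6 by transcript accession for 12520 peaks and by symbol or synonym for 134, and 2 stayed unmatched. All genes means the 20953 protein-coding genes on autosomes and X with a curated transcript. Overlap means at least 1 bp. Overlap counting was tested on simulated data. For a gene with several promoter peaks the earliest was used. Exon and intron numbers follow the deposited transcript models, and Foxp1 peaks outside its labelled model have none.

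Genes and lists were chosen with earlier results of these data known. Named from each list are its 3 earliest genes and those without a label (at most 5, else the first 5 in the alphabet), and every labelled forkhead gene, except that some genes are not reported here; further named genes were chosen after their values were seen. Other settings were a centre within 500 bp of the start, any peak within 1 kb of a gene end, 10 kb or no flank, the peak centre instead of any overlap, the first and the wider 8115 peaks, and other choices among several promoter peaks. Motifs were searched on both strands. Python 3.11.15, numpy 2.4.6, pandas 2.3.3 and matplotlib 3.10.9 were used.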

Additional observations from a re-analysis of the deposited data

How the results depend on the processing

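All 9 genes had a promoter peak with a centre within 500 bp of the start (44.0% of protein-coding genes) and with any peak within 1 kb of a gene end (52.0%), and 8 among the wider 8115 peaks (31.6%), where Foxc1 was lost. Among the first 8115 peaks 5 of the 9 were left (33.0%), without Foxo1, Foxp1, Foxp2 and Foxc1, and 4 of the other forkhead genes, which counted 6 to 12 elsewhere. The 28 peaks of the loci became 18 over gene bodies alone, 14 among the first and 18 among the wider 8115 peaks, fewer by construction, 21 with 10 kb on both sides, and 28 by peak centre. Their pooled density was 1.20 per 100 kb with 10 kb and 1.14 over bodies (1.68 and 1.48 for all protein-coding genes). Among the first 8115 peaks it was 0.565 (0.898). Over all 12 promoter peaks the median width was 1058.5 bp. The 841 bp of all labelled genes is over the earliest peak of each gene and is not its counterpart. Depth is unknown, so absence from the list does not show that Sap130 is absent. No paired analysis was possible because only a ChIP and an input library exist, with no second sample of either.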
